A study of Homo sapiens with 6 samples.

Results

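The carcinoembryonic antigen-related cell adhesion molecules (CEACAMs) CEACAM1, CEACAM5, CEACAM6, CEACAM7 and CEACAM19 were examined in HCC1806/HM3 cells with and without knockdown of mesothelin (MSLN). These 5 genes of the 17860 in the expression table were chosen by their symbols, and the family was taken up because CEACAM6 was lower in the knockdown cells, so the values of all 5 in this comparison are a description with no test. HCC1806/HM3 cells are a derivative of the human triple-negative breast cancer line HCC1806 obtained by repeated passage through mammary fat pad and liver metastasis in nude mice. Both groups carried a lentiviral hairpin with neomycin resistance and had been selected with G418: a control shRNA in shNC (3 samples) and an shRNA against human MSLN in shMSLN (3 samples). The shMSLN group is a single stable knockdown line as far as the labels tell, a pair of MSLN hairpins was designed for the study, and which of them was sequenced is not given in the sources used here. No sample re-expressed MSLN. The labels do not say whether the 3 samples of a group were separate cultures, so p-values measure only the spread between these samples, which may be technical.

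CEACAMs are immunoglobulin-superfamily proteins that bind one another, in the same or in other combinations, between neighbouring cells. CEACAM5 (carcinoembryonic antigen, CEA), CEACAM6 and CEACAM7 are held in the outer leaflet of the plasma membrane by a glycosylphosphatidylinositol (GPI) anchor, as is mesothelin, whereas CEACAM1 and CEACAM19 cross the membrane, and the cytoplasmic tail of the long CEACAM1 form recruits the phosphatases SHP-1 and SHP-2. CEACAM5 and CEACAM6 are made by many carcinomas of the gut, lung and breast, CEACAM7 mainly by colonic epithelium, and CEACAM8 by granulocytes.

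Estimated counts summed to between 17507837 and 18512135 per sample. Between 695 and 1103 genes had a missing mark in the shMSLN samples and 0 in the shNC samples, and 47.7% of the counts over 100 were whole numbers in shMSLN replicates 2 and 3 against 3.36% to 7.02% in the other samples, so these replicates stood apart and the main results are also given with shMSLN replicate 1 alone. Replicate 1 had the most missing marks (1103, against 695 in replicates 2 and 3), so it too differed from the shNC samples in this mark. In that fit the spread came from the shNC samples only, the lone shMSLN sample was assumed to vary like them, and 12.1% of genes were called, so the counts of calls it gives are to be read against that share. MSLN, the targeted gene, was at 231, 226 and 227 CPM (reads relative to the TMM-scaled library size) in the shNC samples and at 37.1, 36.2 and 35.4 CPM in the shMSLN samples, a log2 fold change of -2.65 (SE 0.04, adjusted p = 3.97e-15 by edgeR's quasi-likelihood test). It was the lowest log2 fold change of the 14552 genes tested. Of these genes, 34.6% were called at an adjusted p below 0.05, 18.0% as lower and 16.6% as higher in shMSLN. The labels call the cells breast squamous cell carcinoma cells, and KRT5 (2228 ± 121 TPM, reads relative to transcript length and depth; SD, n = 3), TP63 (186 ± 14.9 TPM) and EPCAM (354 ± 9.02 TPM) were abundant in shNC, while KRT14 was at 4.78 ± 0.263 TPM. The luminal markers GATA3 (209 ± 14.6 TPM), FOXA1 (61.2 ± 4.93 TPM) and ESR1 (6.56 ± 0.371 TPM) were present in shNC as well. ESR1 was called higher and FOXA1 lower in shMSLN, and GATA3 was not called. Of 10 epithelial markers, the basal or squamous KRT5, KRT6A, KRT14, KRT17, TP63 and SFN and the general KRT8, KRT18, EPCAM and CDH1, 2 were higher (KRT17 and CDH1) and 5 lower in shMSLN, and KRT6A was at 138 ± 20.5 TPM in shNC and 69.1 ± 0.240 TPM in shMSLN. The summed level of that list was 4622 to 5060 TPM in shNC and 4186 to 4337 TPM in shMSLN. The part of this difference in the CEACAM values was not tested.

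In control cells the 5 genes spanned a wide range of levels. CEACAM6 was the most abundant at 134 ± 2.85 TPM (SD, n = 3), a level per transcript length. Its mean TPM lay at the 93.8th percentile of the 17860 listed genes. CEACAM5 followed at 33.7 ± 1.75 TPM. CEACAM1 (6.77 ± 0.961 TPM) and CEACAM19 (4.83 ± 0.555 TPM) were lower, with CEACAM1 at 5.93 to 7.82 TPM and CEACAM19 at 4.28 to 5.39 TPM, so these neighbours in the order did not overlap. CEACAM7 had 2, 2 and 1 estimated reads, below the floor of 3 reads per library, and was not detectable at this depth.

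CEACAM6, a GPI-anchored adhesion molecule, was at 165, 151 and 158 CPM in the shNC samples and at 71.2, 68.7 and 65.7 CPM in the shMSLN samples. Every shMSLN sample lay below every shNC sample, by at least 80.0 CPM, and the samples of a group were close to each other. The share of all tested genes without overlap between the groups was not counted, and 34.6% of them were called. The mean was 158 ± 6.72 CPM in shNC and 68.6 ± 2.78 CPM in shMSLN (SD, n = 3 each), which left 43.4% of the control level and gave a log2 fold change of -1.20 (SE 0.05). On the deposited TPM scale the means were 134 ± 2.85 and 59.3 ± 2.07. With shMSLN replicate 1 alone the log2 fold change was -1.15. In bulk RNA, fewer CEACAM6-expressing cells and less CEACAM6 RNA per cell cannot be told apart.

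CEACAM5, the carcinoembryonic antigen measured in serum as a tumour marker, was at 50.5, 44.4 and 47.9 CPM in shNC and at 19.4, 19.9 and 20.1 CPM in shMSLN. The groups did not overlap, the gap between their nearest samples was 24.4 CPM, and the 3 shMSLN samples were almost equal. The mean of 47.6 ± 3.05 CPM in shNC stood against 19.8 ± 0.356 CPM in shMSLN, so that 41.5% was left, with a log2 fold change of -1.27 (SE 0.06). It was -1.30 with shMSLN replicate 1 alone. CEACAM5 and CEACAM6 thus held nearly equal shares of their control levels although their levels differed, and in rank they were 39 and 45 among the log2 fold changes, counted from the lowest. Log2 fold changes of -1 or below with an adjusted p below 0.05 were found for 105 genes, 0.722% of those tested. The tested members outside this range, CEACAM1 and CEACAM19, lay near 0, so there was no member close to that limit on its other side.

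CEACAM1, the transmembrane member with inhibitory tyrosine motifs, was at 9.59, 8.50 and 10.0 CPM in shNC and at 8.69, 8.13 and 9.43 CPM in shMSLN. The groups overlapped. The means were 9.37 ± 0.788 and 8.75 ± 0.653 CPM, and the log2 fold change was -0.10 (SE 0.10, 95% interval -0.32 to 0.13). The interval ran from 0.801 to 1.09 of the control level.

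CEACAM19, a distant member of the family with a transmembrane segment, was at 6.04, 6.94 and 6.63 CPM in shNC and at 6.11, 6.99 and 6.32 CPM in shMSLN. The samples of the groups were interleaved. The means were 6.54 ± 0.460 and 6.47 ± 0.463 CPM, the log2 fold change was -0.01 (SE 0.12), and its 95% interval of -0.26 to 0.25 allowed from 0.834 to 1.19 of the control level. CEACAM7, the third GPI-anchored member, had no value in shMSLN replicate 1 and 2 and 0 estimated reads in replicates 2 and 3. With at most 2 reads in any library it was removed by the filter on low counts, no fold change is given for it, and 4 of the 5 members were therefore fitted.

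**Figure D1:**
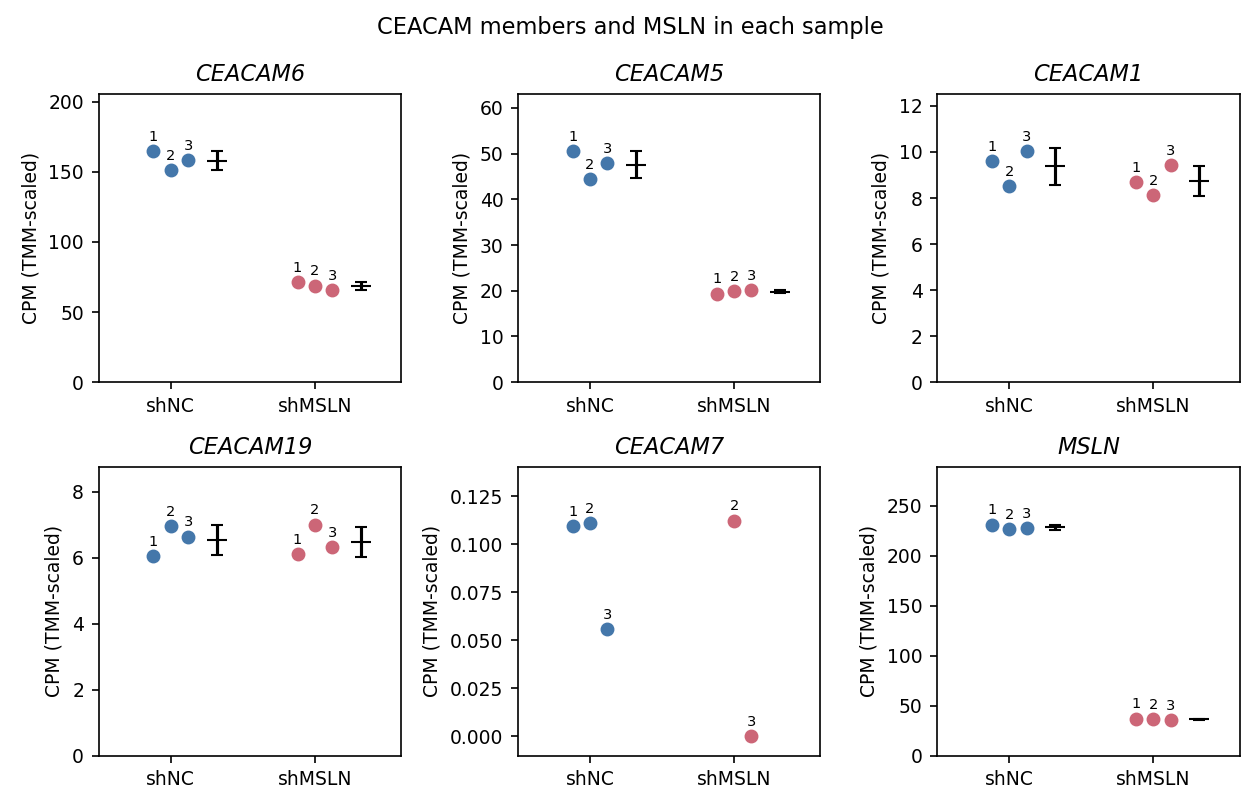
CPM (TMM-scaled, linear axis) of the 5 CEACAM genes and MSLN in each sample, with the replicate number at each point and the mean ± SD (n = 3) at its right, except for CEACAM7, which is below the floor of 3 reads and has no value in shMSLN replicate 1. CEACAM6, CEACAM5 and MSLN do not overlap between the groups, while CEACAM1 and CEACAM19 do. The share of all tested genes without overlap was not counted.

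**Figure D2:**
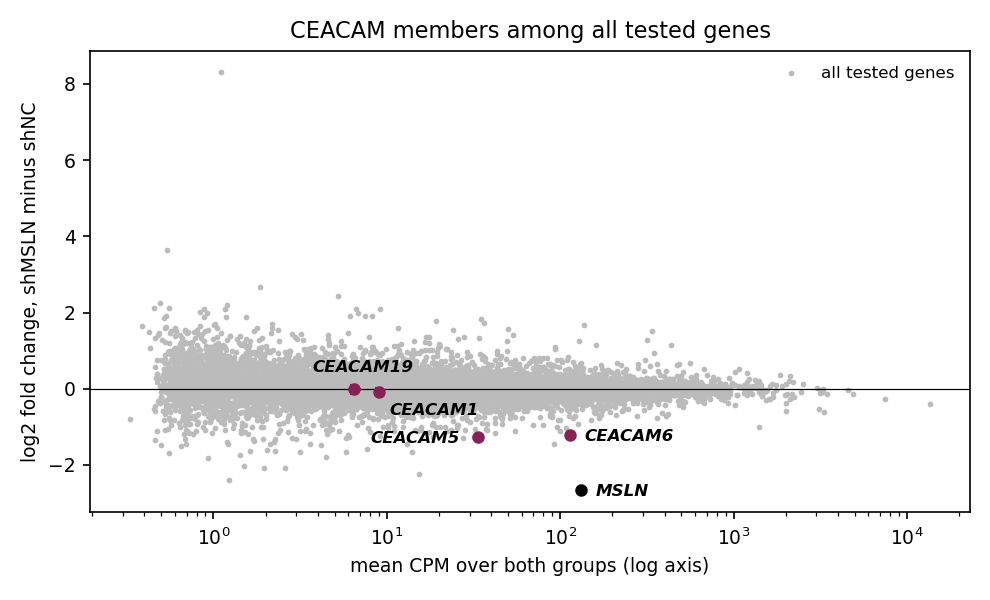
Log2 fold change of shMSLN over shNC against the mean CPM (log axis) for the 14552 tested genes in grey, the 4 fitted CEACAM genes in purple and MSLN in black; bars are standard errors and are shorter than most symbols. CEACAM5 and CEACAM6 lie at the lower edge of genes of their level, at -1.27 and -1.20, and CEACAM1 and CEACAM19 lie near 0.

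The whole family was next summed on the TPM scale. The table listed 10 CEACAM genes, and besides the members these were CEACAM3, CEACAM8, CEACAM16, CEACAM20 and CEACAM21, each at no more than 0.89 TPM in any sample. CEACAM8, a granulocyte protein that binds CEACAM6, was the only one to pass the filter on low counts, with 6.02, 11.8 and 9.89 estimated reads in shNC and 7.54, 13.2 and 15.0 in shMSLN, and it did not pass the test (log2 fold change 0.36, SE 0.39, adjusted p = 0.506 by edgeR). CEACAM3 was listed at 0 in the shNC samples and was missing in the shMSLN samples. With the related pregnancy-specific glycoproteins (PSG), 11 of 17 other family genes were in the table, and all 11 stayed below 1 TPM.

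Summed CEACAM RNA was 185, 176 and 179 TPM in the shNC samples and 86.3, 86.7 and 84.1 TPM in the shMSLN samples. The knockdown cells thus had 0.476 of the control sum (180 ± 4.90 against 85.7 ± 1.36 TPM). Within the sum, CEACAM6 made up 74.4% ± 0.455 in shNC and 69.2% ± 1.55 in shMSLN, and CEACAM5 18.7% ± 0.458 and 16.2% ± 0.5002. CEACAM1, whose own level overlapped between groups, was 3.76% ± 0.429 of the family in shNC and 7.73% ± 0.841 in shMSLN, and CEACAM19 was 2.69% ± 0.378 and 5.67% ± 0.578. The ratio of CEACAM6 to CEACAM5 was 3.84, 4.07 and 4.01 in shNC and 4.52, 4.20 and 4.08 in shMSLN, so the shMSLN samples were all higher but by little. The ratio of CEACAM6 to CEACAM1 was 20.0 ± 2.33 in shNC and 9.03 ± 1.05 in shMSLN. These shares and ratios follow from the values that chose the family and carry no test.

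**Figure D3:**
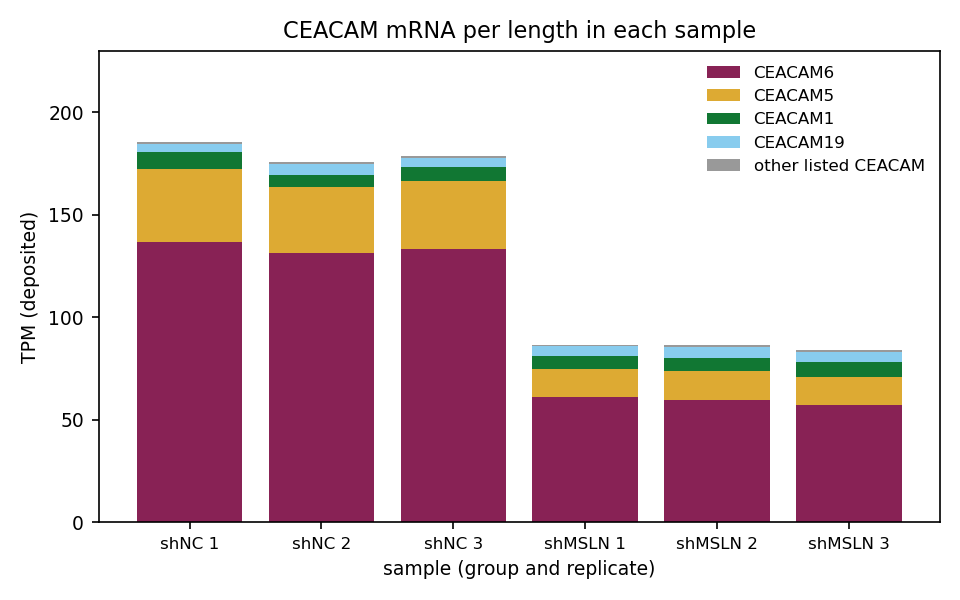
Deposited TPM of the CEACAM genes stacked for each of the 6 samples; grey marks the CEACAM genes other than the 4 named, which are under 1.5% of the sum. The shMSLN bars stand at 84.1 to 86.7 TPM against 176 to 185 TPM for the shNC bars, CEACAM6 and CEACAM5 make the difference, and the CEACAM1 and CEACAM19 segments keep about the same height.

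CEACAM genes are close copies of each other, which bears on how reads were shared out among them. In the coding sequences of GENCODE release 29, CEACAM5 and CEACAM6 were identical at 90.7% of 958 aligned bases, CEACAM1 and CEACAM6 at 90.2% of 958, and CEACAM1 and CEACAM5 at 83.0% of 1238. CEACAM7 was identical to these 3 genes at 82.6% to 83.6% of 706 aligned bases. Of all stretches of 50 bases in the annotated transcripts, 6.96% of those of CEACAM6, 19% of those of CEACAM5 and 2.75% of those of CEACAM1 were also found in another gene, and 0% of those of CEACAM7. For CEACAM19 the share was 2.39%, with PVR as the other gene. For CEACAM1, CEACAM5 and CEACAM6 the other genes were CEACAM3, CEACAM8, the annotation entry AC243967.1 and the members themselves. CEACAM5 and CEACAM6 had 40 stretches in common, CEACAM1 and CEACAM6 had 35, and CEACAM1 and CEACAM5 had 21. No stretch of 100 bases was common to any pair of members, while 14.8% of those of CEACAM5 and 1.73% of those of CEACAM6 were also in AC243967.1. Of those of CEACAM19, 0.707% were also in PVR. The read length is not given in the sources used here. Adding the counts of CEACAM1, CEACAM5, CEACAM6 and CEACAM7 removes any exchange of reads among them. The log2 fold change of the sum was -1.15 (SE 0.04). The summed counts were 4109, 3685 and 3885 in shNC and 1847, 1726 and 1685 in shMSLN. CEACAM6 supplied most of them, such as 3008 of 4109 in shNC replicate 1. The sum therefore mainly follows CEACAM6 and cannot show how reads were divided between CEACAM5 and CEACAM6.

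All 5 genes lie on the long arm of chromosome 19 (GRCh38, GENCODE release 29). CEACAM7 (chr19:41673307-41706976, reverse strand) is followed after 1.61 kb by CEACAM5 (chr19:41708585-41729798, forward strand) and after a further 21.2 kb by CEACAM6 (chr19:41750977-41772208, forward strand). CEACAM1 (chr19:42507304-42561234, reverse strand) lies 735 kb beyond CEACAM6, and CEACAM19 (chr19:44662278-44684359, forward strand) 2101 kb beyond CEACAM1. The members with lower levels in shMSLN were thus next to each other among the members and on the same strand. Of the 21 other tested genes within 500 kb of the stretch from CEACAM7 to CEACAM6, 3 were higher and 1 was lower in shMSLN (19% called against 34.6% of all tested genes), and their median log2 fold change was -0.08 against 0.00 over all tested genes. Their log2 fold changes ran from -0.42 (CYP2S1, a cytochrome P450; SE 0.06, adjusted p = 9.92e-05 by edgeR) to 0.71 (TMEM91, at 1.40 CPM in shNC and 2.29 CPM in shMSLN). The gene nearest to CEACAM6 by start among these, RPS19, was at 311 CPM in shNC and 294 CPM in shMSLN and was not called (log2 fold change -0.08, adjusted p = 0.220).

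The 250 bases before the RefSeq start of 4 of the 5 members (GRCh38.p14; no entry for CEACAM19) were read to show what the promoters of the genes with lower levels share; capitals mark the E-box CACGTG in CEACAM5 and CEACAM6 and the interferon-stimulated response element GAAANNGAAA in CEACAM1. Each is printed 5′ to 3′ on the gene's own strand and ends at the base before the start.
CEACAM6: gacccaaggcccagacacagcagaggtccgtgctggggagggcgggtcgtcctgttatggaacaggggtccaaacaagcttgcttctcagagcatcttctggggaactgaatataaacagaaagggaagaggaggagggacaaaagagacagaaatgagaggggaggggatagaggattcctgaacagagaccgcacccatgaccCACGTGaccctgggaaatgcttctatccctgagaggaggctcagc
CEACAM5: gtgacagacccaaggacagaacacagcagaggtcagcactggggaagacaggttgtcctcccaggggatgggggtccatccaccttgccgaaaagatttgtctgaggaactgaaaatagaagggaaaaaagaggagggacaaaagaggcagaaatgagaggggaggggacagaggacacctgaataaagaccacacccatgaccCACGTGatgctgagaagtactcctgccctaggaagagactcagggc
CEACAM7: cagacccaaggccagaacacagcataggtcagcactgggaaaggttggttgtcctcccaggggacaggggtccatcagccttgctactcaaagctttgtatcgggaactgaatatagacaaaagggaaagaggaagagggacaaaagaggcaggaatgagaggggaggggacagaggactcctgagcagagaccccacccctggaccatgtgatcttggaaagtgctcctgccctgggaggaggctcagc
CEACAM1: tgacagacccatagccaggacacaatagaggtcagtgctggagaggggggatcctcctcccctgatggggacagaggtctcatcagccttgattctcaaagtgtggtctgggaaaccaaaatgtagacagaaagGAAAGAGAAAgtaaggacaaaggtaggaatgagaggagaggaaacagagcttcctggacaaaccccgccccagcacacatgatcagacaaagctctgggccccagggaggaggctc

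These windows are chr19:41755280-41755529 for CEACAM6 and chr19:41708376-41708625 for CEACAM5, both on the forward strand, and chr19:41688271-41688520 for CEACAM7 and chr19:42528482-42528731 for CEACAM1, both on the reverse strand. All 4 RefSeq starts lie inside the GENCODE spans given above. The promoters of CEACAM5 and CEACAM6 were identical at 78.4% of aligned bases, less than CEACAM5 and CEACAM7 (84.4%) and CEACAM6 and CEACAM7 (80.2%), and CEACAM1 was identical to the others at 70.5% to 75.8%. The E-box, the sequence bound by the upstream stimulatory factors USF1 and USF2, began 46 bases before the start in CEACAM5 and 45 in CEACAM6. It was absent from the windows of CEACAM1 and CEACAM7, where the aligned bases differed from it by G4A in CEACAM1 and C3T in CEACAM7, with positions counted from 1 at the first base of the E-box. Of 27305 promoter windows of this length, 6.49% held the E-box.

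Other motifs of transcription factors were searched on both strands. The response element GAAANNGAAA was found only in CEACAM1, 116 bases before the start (3.07% of all promoters), as was a κB site (9.57%). The GC box GGGCGG was found in CEACAM1 and CEACAM6 (42.3% of all promoters) and CACCC in CEACAM5, CEACAM6 and CEACAM7, 57, 56 and 55 bases before the start (53.7%). The ETS core GGAAG was found in all 4 windows (65.1%), TATAAA in that of CEACAM6 alone (11.1%), and the AP-2 motif GCCNNNGGC (19.7%) and the AP-1 motif TGANTCA (6.6%) in none. Of these motifs the E-box alone was in the windows of CEACAM5 and CEACAM6 and in neither of the others. CEACAM7 has no fold change, however, so its window is no contrast for a lower level. Among the fitted members, CACCC too was in CEACAM5 and CEACAM6 and not in CEACAM1. The windows are close copies, so motifs held in common are not independent of each other. A match describes the letters and does not show that a factor is bound.

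The RNA of the factors themselves was measured in the same samples. Of 17 tested factors listed as candidates for CEACAM promoters, 8 fell and 1 rose in shMSLN (52.9% called against 34.6% of all tested genes). Their median log2 fold change was -0.16, and their binding in these cells was not tested. IRF1, an interferon regulatory factor that binds response elements of the kind found in CEACAM1, fell from 67.7 ± 1.66 to 46.9 ± 1.78 CPM (log2 fold change -0.53, SE 0.05, adjusted p = 9.91e-07 by edgeR). ELF3, an epithelial ETS factor, fell from 380 ± 1.03 to 274 ± 10.9 CPM (adjusted p = 2.43e-07), KLF4, a Krüppel-like factor of epithelial differentiation, from 28.9 ± 1.57 to 20.1 ± 1.49 CPM (adjusted p = 4.99e-05), and TFAP2C, an AP-2 factor, from 43.7 ± 1.69 to 31.7 ± 1.51 CPM (adjusted p = 1.88e-05). ELF1, another ETS factor, rose from 123 ± 8.06 to 139 ± 1.34 CPM (adjusted p = 0.00897). The E-box factors were looked at after their values were seen: USF1 fell from 27.6 ± 1.58 to 22.0 ± 1.06 CPM (log2 fold change -0.33, SE 0.07, adjusted p = 0.00154), and USF2 was at 145 ± 2.75 and 143 ± 3.87 CPM (adjusted p = 0.782). With shMSLN replicate 1 alone, 5 of 18 factors were lower and 0 higher (27.8% called against 12.1%), and ELF1 was not among those called.

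A hairpin can also act on transcripts other than its target, so the MSLN target sequences designed for the study were compared with the members' transcripts.
shRNA1: tggccaacccacctaacattt
shRNA2: ctggacgtcctaaagcataaa
The longest run of bases shared with CEACAM6 was 9 for shRNA1 and 7 for shRNA2, of 21. With CEACAM5 it was 9 and 8, and 14.1% of 19669 genes held a run of 9 or more from shRNA1. The longest run with any member was 12 bases, of shRNA1 with CEACAM1 (0.219% of genes held one as long). Pairing of the hairpin's seed with the members was not tested.

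As CEACAM5 and CEACAM6 share their membrane anchor with mesothelin, other GPI-anchored proteins were examined. Of 50 tested, 11 rose and 11 fell (44.0% called against 34.6% of all tested genes, which were split in both directions as well), with a median log2 fold change of 0.03. The placental alkaline phosphatase gene ALPP rose from 75.2 ± 9.43 to 180 ± 4.66 CPM (log2 fold change 1.26, SE 0.07, adjusted p = 3.65e-09 by edgeR), and its near-identical germ-cell copy ALPG from 10.7 ± 1.31 to 24.5 ± 1.48 CPM (adjusted p = 1.29e-07), between which reads may have been divided. The complement regulator CD55 rose from 67.6 ± 3.19 to 106 ± 4.93 CPM (adjusted p = 1.66e-07) and the neural adhesion molecule CNTN1 from 2.77 ± 0.245 to 4.77 ± 0.866 CPM (adjusted p = 0.00274). LY6D, a Ly6-family protein of squamous keratinocytes, fell from 135 ± 24.9 to 49.5 ± 4.60 CPM (log2 fold change -1.44, SE 0.11, adjusted p = 1.06e-07), VNN1, the pantetheinase vanin-1, from 3.09 ± 0.570 to 1.02 ± 0.304 CPM (adjusted p = 0.000164) and CDH13, a cadherin without a cytoplasmic tail, from 63.1 ± 4.22 to 41.2 ± 0.883 CPM (adjusted p = 9.36e-07). EFNA2, an ephrin, was called at an adjusted p of 0.0428 and lost this call in 8 of 17 alternative fits. Where replicate 1 was the only shMSLN sample, the GPI-anchored genes had a median of 0.01 on the log2 scale.

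The enzymes that make and attach the anchor were measured as well. Of 31 tested, 9 rose and 3 fell (38.7% called, near the 34.6% of all tested genes), with a median log2 fold change of 0.10. DPM3, a subunit of the mannosyl donor synthase, rose from 8.24 ± 0.831 to 11.3 ± 1.08 CPM (adjusted p = 0.00435 by edgeR), PGAP3, a lipid remodelling enzyme, from 17.4 ± 1.24 to 23.3 ± 1.17 CPM (adjusted p = 0.000508), and PIGB and PIGN, which add mannose and ethanolamine phosphate, rose by 0.37 and 0.27 on the log2 scale, with PIGB not called without shMSLN replicate 2 and neither called with replicate 1 alone. PIGY and PIGX, subunits of the first transferase and of the first mannosyltransferase, fell by 0.35 and 0.31 on the log2 scale (adjusted p = 0.000363 and 0.00166). PIGH, in the same first transferase as PIGY, was called at an adjusted p of 0.0403, and this call was lost in 8 of 17 alternative fits. PIGY shares a transcript with PYURF, so its reads are uncertain. Where replicate 1 was the only shMSLN sample, the anchor enzymes had a median of 0.11 on the log2 scale. No change in this list exceeded 0.46 on the log2 scale among the genes named.

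Of 18 proteins that bind CEACAMs or carry their signal, 4 rose and 2 fell (33.3% called, near the 34.6% of all tested genes), with a median log2 fold change of 0.01. Integrin β1 (ITGB1) rose from 385 ± 9.33 to 456 ± 11.2 CPM (log2 fold change 0.24, SE 0.04, adjusted p = 9.87e-05 by edgeR), and EGFR from 535 ± 12.1 to 604 ± 14.6 CPM (log2 fold change 0.18, adjusted p = 0.00123). Calmodulin (CALM2) and paxillin (PXN) both rose by 0.13. The TGF-β receptor gene TGFBR1 fell from 35.4 ± 1.38 to 25.6 ± 1.496 CPM (adjusted p = 3.95e-05) and integrin αV (ITGAV) from 314 ± 26.1 to 276 ± 3.62 CPM (adjusted p = 0.00957). The phosphatases of the CEACAM1 tail, PTPN6 (SHP-1) and PTPN11 (SHP-2), were named after their values were seen and were not called, at log2 fold changes of -0.08 (SE 0.05) and -0.05 (SE 0.04). With shMSLN replicate 1 alone, 2 of the 18 were called (11.1%, against 12.1% of all genes), ITGB1 and TGFBR1.

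Among 49 other surface proteins of the immunoglobulin superfamily, adhesion molecules among them, 18 rose and 9 fell (55.1% called against 34.6% of all tested genes), with a median log2 fold change of 0.04. The laminin receptor BCAM rose from 164 ± 9.33 to 262 ± 3.73 CPM (log2 fold change 0.68, SE 0.04, adjusted p = 2.54e-08 by edgeR), L1CAM, a neural adhesion molecule, from 5.54 ± 0.607 to 10.5 ± 0.866 CPM (adjusted p = 2.90e-05), MCAM (CD146) from 9.33 ± 0.713 to 15.1 ± 0.623 CPM (adjusted p = 3.08e-05) and ESAM, an endothelial adhesion molecule, from 7.22 ± 1.10 to 11.04 ± 1.45 CPM (adjusted p = 0.00176). ICAM1, the ligand of leukocyte integrins, fell from 19.7 ± 2.30 to 12.2 ± 0.735 CPM (log2 fold change -0.69, SE 0.09, adjusted p = 4.46e-05). The epithelial nectin NECTIN4, the adhesion protein MPZL2 and the "don't eat me" signal CD47 fell by 0.44, 0.35 and 0.33 on the log2 scale. Where replicate 1 was the only shMSLN sample, these surface proteins had a median of 0.07 on the log2 scale. The falls of the genes named here were all smaller than the differences in CEACAM5 and CEACAM6. The family was taken up because CEACAM6 was lower, so this order follows in part from that choice.

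**Figure D4:**
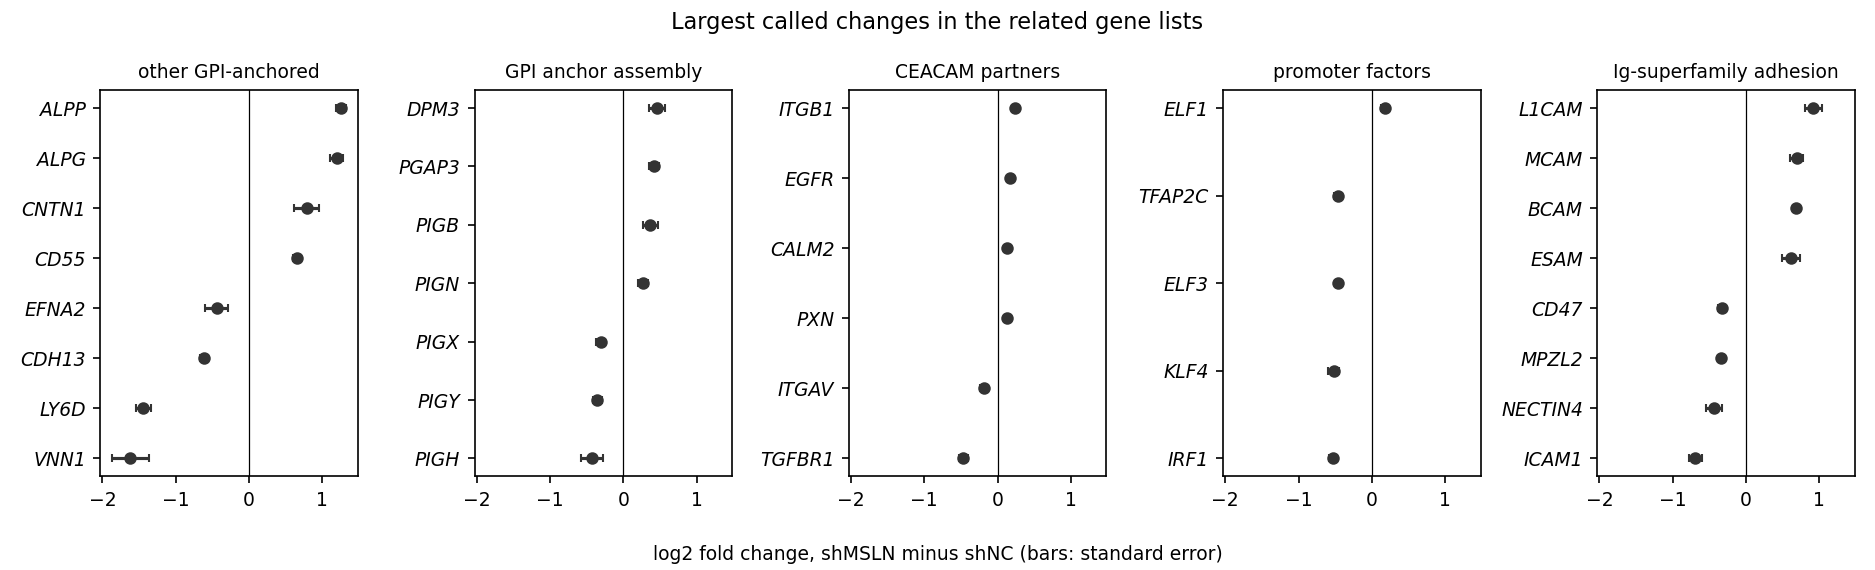
Log2 fold change (± SE) of the genes named from each of 5 related lists, up to 4 rises and 4 falls per list among the called genes with a mean of at least 1 CPM. The GPI-anchored list holds the widest range, from VNN1 at -1.62 to ALPP at 1.26.

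The profile of each gene over the 6 samples, as log2 CPM around its own mean, was then compared with that of CEACAM6 by Euclidean distance among 13761 genes with a mean of at least 1 CPM. CEACAM5 was the nearest of all, at a distance of 0.146, followed by C12orf75 (0.152), PLEKHO1 (0.175), KLK11 (0.181) and AQP3 (0.201). KLK11, a kallikrein-related peptidase, was at 21.6 CPM in shNC and 10.1 CPM in shMSLN, and AQP3, the water and glycerol channel of keratinocytes, at 74.4 and 34.7 CPM. MSLN itself was at rank 11436 with a distance of 1.77, as its log2 fold change was larger in size. The genes nearest to CEACAM1 were CHURC1-FNTB (0.0554), EPDR1 (0.0559), ARHGAP17 (0.0739), C1orf50 (0.0773) and FHL3 (0.0880), all with log2 fold changes between -0.13 and -0.04. CEACAM5 was at rank 13548 from CEACAM1. This likeness describes 6 samples of 2 groups and is set mainly by the difference between the groups.

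Markers of leukocytes, which make CEACAM1 and CEACAM8, were present at low levels. Their sum was near the level of CEACAM1 in shNC (6.77 TPM) and above that of CEACAM8 (at most 0.89 TPM). Of 8 markers, 7 were in the table and 4 were tested, with a summed level of 6.28 to 7.40 TPM in shNC and 7.91 to 8.97 TPM in shMSLN. PTPRC (CD45) was at 3.03 ± 0.682 and 3.897 ± 0.349 TPM, MPO was listed at 0 in shNC and missing in shMSLN, and CD3E was at 0.0600 and 0.0633 TPM. ITGAM was at 0.630 ± 0.128 and 0.437 ± 0.101 TPM (log2 fold change -0.68, SE 0.28, adjusted p = 0.0744 by edgeR) and CD14 at 2.49 ± 0.304 and 3.04 ± 0.0850 TPM (adjusted p = 0.529). CSF3R was called higher (0.530 ± 0.0800 against 1.02 ± 0.168 TPM, adjusted p = 0.0205 by edgeR) and lost this call in 6 of 17 alternative fits. Hepatocyte markers summed to at most 0.670 TPM and endothelial markers to at most 2.86 TPM. Fibroblast markers summed to 12.91 to 13.37 TPM in shNC and 13.44 to 14.2 TPM in shMSLN, mostly from COL1A1 (11.45 TPM in shNC). The part of these markers in the CEACAM values was not tested.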

How the data were processed

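RNA from HCC1806/HM3 cells was enriched with oligo(dT) and sequenced by BGI. The authors deposited 1 table of 17860 genes with estimated counts, not scaled to depth, and with TPM and FPKM values scaled for depth and gene length. The submitters' processing notes name the build GRCh38.p13; the aligner, quantifier and annotation are not given in the sources used here. Genes with a missing mark in any sample (1287) were left out of the fit and 16573 were kept. Estimated counts were rounded and compared between shMSLN and shNC by the quasi-likelihood test of edgeR 4.0.16 (R 4.3.3), after TMM scaling and its filterByExpr filter, with default settings and no covariate, and p-values were adjusted over 14552 genes by Benjamini-Hochberg. CPM were computed on TMM-scaled library sizes, SE is the log2 fold change divided by the square root of F, and TPM served for levels between genes. The floor of 3 reads was 0.161 to 0.169 CPM and covers counting error only. The fit was tested on simulated data.

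The members, gene lists and alternatives were chosen with earlier results of these data known. Named were the 5 members, MSLN, up to 4 rises and 4 falls per list among called genes with a mean of at least 1 CPM, the 5 profiles nearest to CEACAM6 and to CEACAM1 (log2 CPM, prior count 2), and markers. RPS19, CYP2S1, TMEM91, USF1, USF2, PTPN6, PTPN11 and CEACAM8 were named after their values were seen. Coding sequences were aligned with Biopython 1.88. Alternatives were other scalings, filters, DESeq2 1.42.0, limma-voom (limma 3.58.1), robust estimation, a replicate block, leaving out each sample, missing marks as 0 counts, summed counts, and TPM and FPKM; shMSLN replicate 1 alone was added after seeing the data.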

Additional observations from a re-analysis of the deposited data

How the results depend on the processing

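CEACAM6 kept its value within the spread between replicates in 21 of 21 alternatives and CEACAM19 in 20 of 20, while CEACAM7 could not be fitted in any. With the counts of the close copies summed, the log2 fold change was -1.15, outside that spread for CEACAM1 and CEACAM5. CEACAM6 supplied most of the summed counts, so this alternative says little about CEACAM6 itself. MSLN was at -2.61 on log2(TPM + 0.1) and on log2(FPKM + 0.1), and at -2.58 on log2(TPM + 1). Leaving out each sample gave -1.23 to -1.17 for CEACAM6, -1.32 to -1.23 for CEACAM5, -0.16 to -0.04 for CEACAM1, -0.07 to 0.04 for CEACAM19 and -2.67 to -2.63 for MSLN. It gave 3695 (without shMSLN replicate 2) to 5399 called genes against 5032. With shMSLN replicate 1 alone, a setting chosen after seeing the data, 1797 genes were called, with 13 GPI-anchored, 6 anchor-assembly, 2 partner, 5 promoter factor and 15 immunoglobulin-superfamily genes; it has fewer samples, and its lone shMSLN sample was assumed to vary like the shNC samples. In that setting these lists held, in the same order, 52, 31, 18, 18 and 49 tested genes. The counts are to be read against these sizes and against the 12.1% of all tested genes called there. DESeq2 called 3863 genes. With the replicate block 5789 were called; same-numbered samples correlated at 0.165, 0.0764 and 0.0718 in their deviations, so the numbers were not taken as pairs. Upper-quartile scaling and library totals moved the median of all genes to at most 0.03 and turned the balance of calls, to 2911 higher and 2149 lower and to 2905 and 2135, from 2411 and 2621. CEACAM7 and CEACAM8, with at most 15.0 reads per sample, are limited by depth.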
